A study of Mus musculus with 2 samples.

Results

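miR-99b, miR-125a-5p and miR-125b-5p are 3 microRNAs (miRNAs) of the miR-99/100 and miR-125 families, and they were followed here through an RNA pull-down. The cells were RAW264.7, an established macrophage line from mouse. The members were taken by name from the authors' deposited table of ratios, which holds 384 rows, 376 of them miRNA assays. They were chosen by their ratios and by shared family and cluster, so those ratios are a description and were not tested. The labels give 1 pull-down with a control probe and 1 with a probe for Stat3 mRNA, each transfected into the same line for 24 hours and recovered on streptavidin beads, and the design asks which miRNAs associate with Stat3 mRNA, the transcript of a transcription factor downstream of IL-6 and IL-10. Each pull-down was read on 1 real-time PCR plate of 384 wells, which gives a threshold cycle (Ct): a lower Ct means more template of that assay, with 1 cycle worth 2-fold where amplification is complete. No RNA from before the capture was analysed here, so a ratio compares what came down with each probe and not the amount in the cells. Both pull-downs come from a single line, and the labels give no replicate cultures for either probe, which limits them as a model of macrophages.

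miRNAs guide Argonaute proteins to messenger RNAs, mainly through the seed, bases 2 to 8 of the mature strand. The miR-125 family descends from the same ancestor as lin-4 of nematodes, and the miR-99/100 family, which lies beside it in the genome together with let-7 members, is known for acting on mTOR. In blood cells, miR-125 members are known for raising the output of stem cells, and in macrophages miR-125b is known as a repressor of Tnf.

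The mature sequences from RefSeq (build GRCm38.p6) show which of these miRNAs share a seed, printed in capitals, and how the members differ from their closest paralogs. The plate name miR-99b carries no arm and was read as the 5p strand.
miR-99b-5p: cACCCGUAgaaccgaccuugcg
miR-99a-5p: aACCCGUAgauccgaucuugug
miR-125a-5p: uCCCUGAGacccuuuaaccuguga
miR-125b-5p: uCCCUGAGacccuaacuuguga
miR-351-5p: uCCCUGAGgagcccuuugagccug
let-7e-5p: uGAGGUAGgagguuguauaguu

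Counted from the 5′ end, miR-99b differs from miR-99a at 4 of 22 bases, C1A, A11U, C16U and C21U, with none inside the seed. miR-125a-5p, of 24 bases, and miR-125b-5p, of 22, share their first 13 bases and their last 5, and 21 of 24 aligned positions are identical (87.5%). miR-351 shares the first 8 bases of the miR-125 members. In RefSeq, 3 mature mouse miRNAs of 1679 have the seed of miR-99b and 5 have that of miR-125. Because the paralogs are so alike, their assays could share signal, which was not tested.

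miR-99b and miR-125a lie in the same direction on chromosome 17, at chr17:17830194-17830215 and chr17:17830817-17830840 on the plus strand. Their mature strands start 623 bases apart, with let-7e between them at 172 bases from miR-99b, all inside the interval of the protein-coding gene Spaca6. The tables used do not say whether this is exon or intron. miR-125b-5p is made at 2 loci, chr9:41581940-41581961 within the noncoding RNA gene Mir100hg and chr16:77646279-77646300, both on the plus strand. The first locus is 50503 bases from miR-100 and the second 47339 bases from miR-99a. One assay reads both copies, so they cannot be told apart.

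Each member was tied to a single plate well, and none of the 6 readings carried an instrument warning. Across the plate, 121 wells of the control pull-down and 132 of the Stat3 pull-down lay below 35 cycles, and 100 miRNA assays were below 35 in both and are called measured. Of 6 macrophage markers, 5 were measured in both (miR-21, miR-142-3p, miR-146a, miR-155 and miR-223), from 27.19 to 32.09 cycles with the control probe, and miR-142-5p was in neither. Of 10 miRNAs of other cell types, 4 were measured in both and 3 only with the control probe, at 30.47 to 34.72 cycles there, and the muscle miRNAs miR-1, miR-133a and miR-206 were in neither.

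The well of mmu-miR-99b crossed the threshold at 31.10 cycles after capture by the control probe and at 26.48 after capture by the Stat3 probe. It came up 4.62 cycles earlier with the Stat3 probe. It was the 45th lowest Ct of 100 with the control probe and the 10th lowest with the Stat3 probe, so it moved from the middle of the measured assays to among those with the most signal. On the scale of the authors' deposited table, which adds 0.7 cycles to the Ct difference before raising 2 to that power, the ratio was 40.1-fold (log2 ratio 5.32), with 4 measured assays higher. Among all 384 rows, where assays below 35 cycles with only 1 probe also count, miR-99b ranked 7th.

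For mmu-miR-125a-5p the control plate gave 29.64 cycles and the Stat3 plate 25.60. The difference was 4.03 cycles, again toward the Stat3 probe. Its place by Ct went from 22nd to 3rd of 100. Only miR-20a and miR-15b had a lower Ct with the Stat3 probe, both at 25.44 cycles. The ratio was 26.6-fold (log2 ratio 4.73), next after miR-99b among the 100 measured assays.

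For mmu-miR-125b-5p the control plate gave 28.52 cycles and the Stat3 plate 26.46. It was the strongest of the 3 members with the control probe, and its gap of 2.05 cycles was the smallest. Its places by Ct, 12th in the control pull-down and 9th in the Stat3 pull-down, were close to each other. The ratio was 6.74-fold (log2 ratio 2.75), the 26th of 100.

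**Figure D1:**
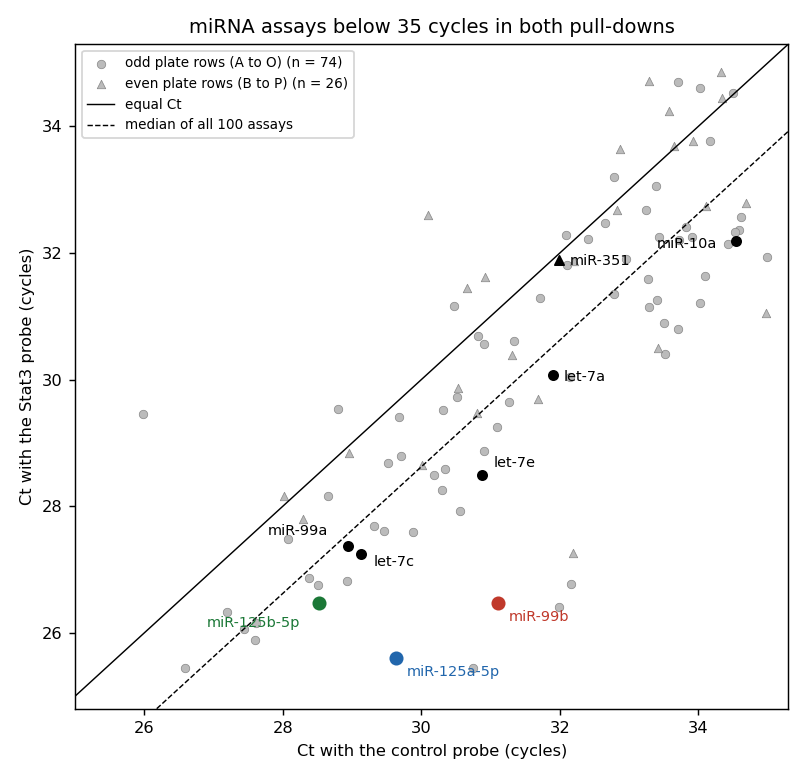
Ct with the control probe (x axis, cycles) against Ct with the Stat3 probe (y axis, cycles) for the 100 miRNA assays below 35 cycles in both pull-downs, circles marking the odd and triangles the even plate rows. miR-99b (31.10 and 26.48) and miR-125a-5p (29.64 and 25.60) lie far under the dashed median line, and miR-125b-5p (28.52 and 26.46) lies close to it.

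All 3 members were at least 2-fold and at least 4-fold higher with the Stat3 probe, but so were 73.0% and 53.0% of the measured miRNA assays, whose median was 4.22-fold. Against that median, miR-99b was 9.49-fold, miR-125a-5p 6.31-fold and miR-125b-5p 1.60-fold higher. At least 4-fold above it were miR-99b and miR-125a-5p, as were 7.0% of all measured assays. The rule chose the members partly by these ratios, so nothing is read from their share.

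Ratios also differed between odd plate rows (A, C and onward to O) and even ones (B, D and onward to P). The 3 members lie in odd rows, C, O and E, whose 74 measured assays reached 5.01-fold at the median, against 1.80-fold for the 26 of the even rows. Against the median of their own rows, miR-99b was 7.99-fold and miR-125a-5p 5.31-fold higher, and miR-125b-5p was 1.35-fold higher. At least 2-fold above the median of their own set of rows were 18.0% of all measured assays and at least 4-fold 8.0%, miR-99b and miR-125a-5p among them at both limits and miR-125b-5p at neither. The part of the plate rows in the remaining distances was not tested.

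**Figure D2:**
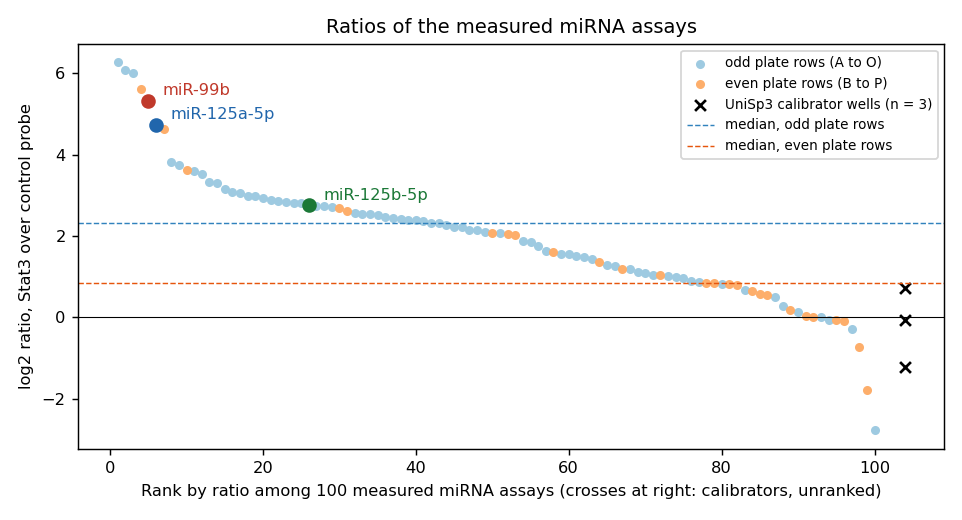
log2 ratio of Stat3 over control probe (y axis) for 100 measured miRNA assays ranked from the highest (x axis), coloured by odd or even plate rows, with the 3 UniSp3 calibrator wells as crosses and dashed lines at the medians of both sets of rows. miR-99b (rank 5) and miR-125a-5p (rank 6) stand above the bulk, while miR-125b-5p (rank 26) lies within it.

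The spread used here as a measure of error comes from 3 wells of UniSp3, a calibrator with the same template on every plate. The calibrator's difference between plates (control minus Stat3 Ct) was -0.89 ± 0.97 cycles (SD, n = 3 wells), over a range of 1.93 cycles. Wells C2 and E3, in odd rows, gave 0.02 and -0.76 cycles, and well B3, in an even row, gave -1.91 cycles. The SD and range therefore also hold the difference between odd and even rows, and its part in them was not tested. This spread covers the PCR and the well but not the pull-down or any other step before the plate. With 1 pull-down per probe there is no test of any ratio. The distance from the median of the odd plate rows was 3.08 calibrator SD for miR-99b, 2.48 for miR-125a-5p and 0.44 for miR-125b-5p. The members were chosen partly by their ratios, so these distances are a description and not a test. A calibrator well lies in the same plate row as miR-99b (row C, 0.02 cycles between plates) and as miR-125b-5p (row E, -0.76 cycles). Set against them, miR-99b was 24.3-fold and miR-125b-5p 7.05-fold higher with the Stat3 probe. Row O, which holds miR-125a-5p, has no calibrator.

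Assays that started from a like Ct with the control probe did not reach the same ratio as a rule. Of the 26 other assays within 1 cycle of miR-99b with the control probe, the lowest ratio was 0.945, the median 3.52-fold and the highest 77.2-fold, and miR-25 and miR-15b were above miR-99b. The 22 other assays within 1 cycle of miR-125a-5p ran from 0.288 through a median of 3.57-fold to 10.1-fold for miR-27b, all below the 26.6-fold of miR-125a-5p. The 15 other assays within 1 cycle of miR-125b-5p had a median of 4.66-fold and a highest value of 7.03-fold for let-7b, the only assay of these above miR-125b-5p. Within the same plate row, miR-125a-5p was the highest of its row's measured assays, and miR-99b and miR-125b-5p were the second, after miR-374 at 68.0-fold and miR-320 at 7.90-fold.

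By Ct, the 2 paralogs that share the miR-125 seed stood in opposite order in the 2 pull-downs. With the control probe miR-125b-5p had the lower Ct, by 1.12 cycles. With the Stat3 probe miR-125a-5p had the lower Ct, by 0.86 cycles. That is less than the SD of 1.16 cycles among the 3 calibrator wells of the Stat3 plate, so against that SD the order was not resolved. This SD includes well B3 of an even row, at 23.67 cycles. The wells of the odd rows were at 21.48 and 21.95 cycles, and the order was not tested against those alone. The ratio of miR-125a-5p was thus 3.95-fold that of miR-125b-5p, a log2 difference of 1.98, which no common factor between plates can alter. It is 2.04 times the SD of single calibrator wells and 0.046 cycles more than the range of the 3 wells. A gap between 2 assays carries the error of 2 wells, and the members were chosen partly by their ratios, so this gap was not tested. The 2 calibrators of the odd rows, where both assays lie, differed by 0.78 cycles. miR-351, the other assay with this seed, gave nearly equal values, 31.98 cycles for the control and 31.89 for the Stat3 pull-down, which is 1.73-fold. It lies in row B, where ratios were lower, and its 1.73-fold is close to the 1.80-fold median of those rows.

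The miR-99 family showed the same exchange of order. miR-99a was at 28.93 cycles with the control probe, 2.17 cycles below miR-99b, and at 27.37 cycles with the Stat3 probe, 0.90 above it. The gap of 0.90 is also less than the calibrator SD of the Stat3 plate, so against that SD this order was not resolved either. That SD mixes wells of odd and even rows, whereas both miR-99 assays lie in odd rows. Its ratio was 4.79-fold, close to the 5.01-fold median of its plate rows. The ratio of miR-99b was 8.35-fold that of miR-99a, a log2 difference of 3.06. That is 3.15 times the SD of single calibrator wells, and this gap between 2 assays was not tested either. miR-100, which carries the same seed, did not come below 35 cycles in either pull-down. Among the related miR-10 assays, whose seed differs from that of miR-99b, miR-10a was weak, at 34.54 and 32.19 cycles, with a ratio of 8.28-fold, and miR-10b did not come below 35.

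**Figure D3:**
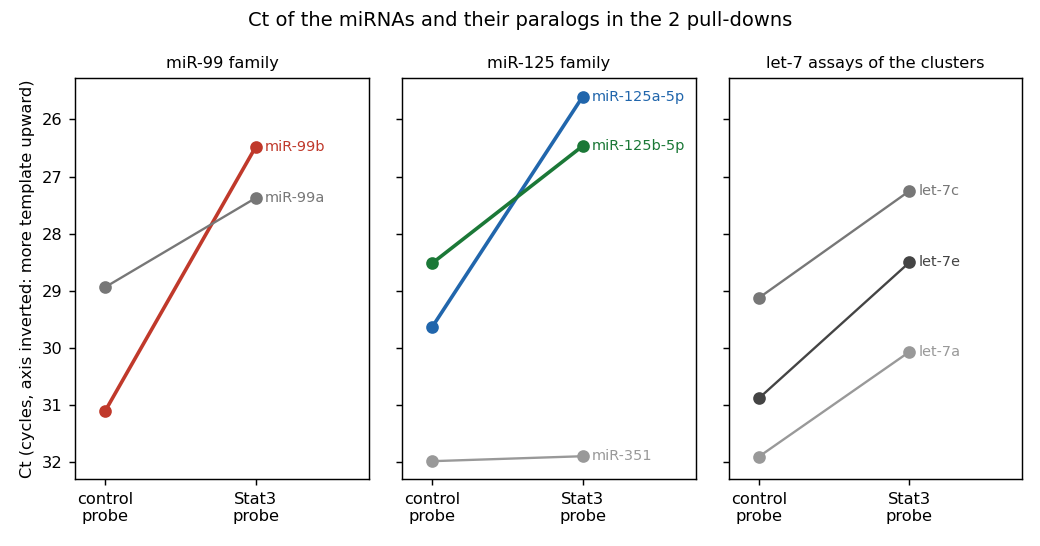
Ct (y axis, cycles, inverted so that more template is upward) with the control and the Stat3 probe (x axis) for the measured miR-99, miR-125 and cluster let-7 assays, 1 line per assay from 1 well per plate. The line of miR-99b (31.10 to 26.48) crosses that of miR-99a (28.93 to 27.37), and the line of miR-125a-5p (29.64 to 25.60) crosses that of miR-125b-5p (28.52 to 26.46), while let-7e, let-7c and let-7a keep their order. Both gaps at the Stat3 probe are smaller than the Ct SD of the calibrator wells on that plate, which lie in odd and even rows.

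By genomic cluster, miR-99b and miR-125a-5p had the highest ratios and the third miRNA of their cluster was lower. let-7e, a member of the growth-restraining let-7 family, gave 30.88 cycles for the control and 28.50 for the Stat3 pull-down, which is 8.46-fold. It had nearly the Ct of miR-99b on the control plate and was 2.02 cycles above it on the Stat3 plate. miR-99b thus had 4.74-fold and miR-125a-5p 3.15-fold the ratio of let-7e. The second of these gaps, 1.65 on the log2 scale, is smaller than the calibrator range, and the gap of 0.59 between miR-99b and miR-125a-5p is below 1 calibrator SD.

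In the paralogous cluster on chromosome 16 the ratios lay close together, 4.79-fold for miR-99a, 5.95-fold for let-7c and 6.74-fold for miR-125b-5p. miR-125b-5p was 1.41-fold above miR-99a and 1.13-fold above let-7c, both below 1 calibrator SD. In the cluster on chromosome 9, let-7a was at 5.80-fold and miR-100 was not measured. let-7a and let-7c, like miR-125b-5p, have copies at other loci too. let-7e exceeded let-7c by 1.42-fold and let-7a by 1.46-fold, also below 1 calibrator SD. Of the 9 relatives on the plate, 6 were measured, and 5 of the 6 reached 4-fold, against 53.0% of all measured assays. All 5 lie in odd plate rows, where 60.8% reached 4-fold. The median of the 6 was 5.87-fold, against 4.22-fold for all measured assays and 5.01-fold for those of the odd rows.

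**Figure D4:**
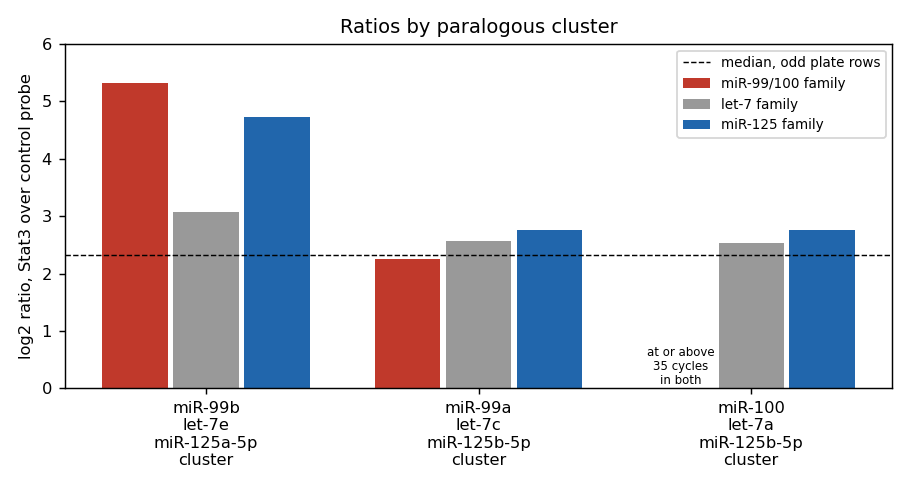
log2 ratio of Stat3 over control probe (y axis) for the miRNAs of 3 paralogous clusters (x axis), bars coloured by family, from 1 pull-down per probe, and with the dashed line at the median of the odd plate rows. The bars of miR-99b (5.32) and miR-125a-5p (4.73) stand above all others, and miR-125b-5p (2.75), shown in both clusters that encode it, is level with its neighbours.

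The other arm of the miR-125a precursor was on the plate as well. The RefSeq hairpin at chr17:17830812-17830879 (plus strand) is shown with both mature arms in capitals, miR-125a-5p first and miR-125a-3p second.
Mir125a hairpin: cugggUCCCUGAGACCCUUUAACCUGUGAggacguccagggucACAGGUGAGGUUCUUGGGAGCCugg

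miR-125a-3p did not come below 35 cycles with either probe, at the value of 1.625 that the authors' deposited table gives to every such row. Its sister arm had the third lowest Ct of the measured miRNAs with the Stat3 probe. Arms of the other 2 members' precursors were not analysed here.

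By likeness of both Ct values, the nearest assays to miR-99b were miR-25 at a distance of 0.89 cycles, miR-15b at 1.09 and miR-374 at 1.10, whose ratios were 77.2-fold, 64.0-fold and 68.0-fold. Nearest to miR-125a-5p were miR-15b at 1.12 cycles, let-7b at 1.40 and miR-125b-5p at 1.41. Nearest to miR-125b-5p were miR-23b at 0.28 cycles, miR-23a at 0.42 and let-7b at 0.54, with ratios of 5.50-fold, 4.66-fold and 7.03-fold. Likeness was measured over 2 pull-downs only. In the order of ratios among the 100 measured assays, miR-99b stood between miR-423-3p at 49.5-fold and miR-125a-5p, miR-125a-5p between miR-99b and miR-501-3p at 24.7-fold, and miR-125b-5p between miR-26a at 6.97-fold and miR-421 at 6.71-fold. Each of these neighbours was less than 1 calibrator SD away, so the order among them was not resolved.

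The size of all 3 ratios depended on the scale. Scaled to 4 reference miRNAs (miR-16, miR-103, miR-423-3p and miR-191), the ratio was 6.74-fold for miR-99b, 4.48-fold for miR-125a-5p and 1.13-fold for miR-125b-5p. Without miR-423-3p, itself at 49.5-fold, the first 2 were 13.7-fold and 9.08-fold, and the log2 ratio of miR-125b-5p was 1.20. Scaled to the small nuclear RNA U6, itself at 4.33-fold, they were 9.24-fold, 6.14-fold and 1.56-fold. The other small nuclear RNAs, RNU1A1 at 0.699-fold and RNU5G at 0.472-fold, moved the values the other way, to 57.3-fold, 38.1-fold and 9.64-fold on RNU1A1 and to 84.9-fold, 56.4-fold and 14.3-fold on RNU5G. miR-99b and miR-125a-5p were above 4-fold on each of these scales. miR-125b-5p was below 2-fold on the scales of all 4 reference miRNAs and of U6 and above it on the other 3. Among the reference miRNAs and small nuclear RNAs, only miR-16 lies in an odd plate row, as the members do. The scaled values therefore also hold the difference between odd and even rows, and its part in them was not tested.

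**Figure D5:**
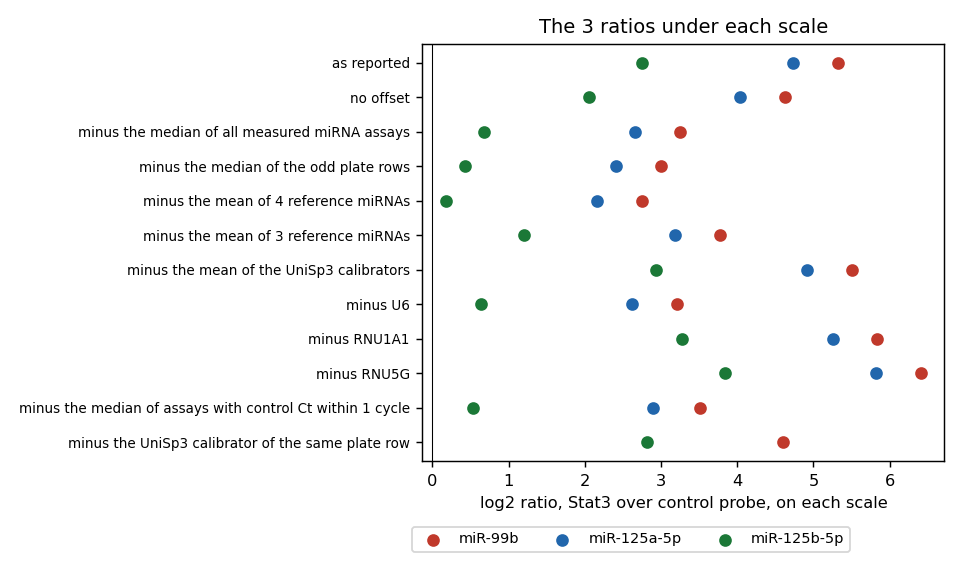
log2 ratio of Stat3 over control probe (x axis) of the 3 miRNAs on each scale (y axis), 1 point per miRNA; the last scale has no point for miR-125a-5p, whose plate row holds no calibrator. From the 4 reference miRNAs to RNU5G, miR-99b runs from 2.75 to 6.41, miR-125a-5p from 2.16 to 5.82 and miR-125b-5p from 0.18 to 3.84, with the distances between them the same on every scale that is common to all assays.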

How the data were processed

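Plates were exported from SDS 2.3 with a manual threshold of 0.15, per the file headers. The deposited Ct values were treated as a score in cycles, without normalization, and name wells only. In the authors' deposited table each assay has 1 linear ratio, although its header says log fold change. A ratio equals 2 raised to the control Ct minus the Stat3 Ct plus 0.7, with Ct held at 35, an offset and ceiling recovered from the values. This identity (tolerance 0.0006) tied 142 of 146 informative rows to 1 well each, and 4 to a pair of wells, where miR-451 was taken as the weaker well of its pair and UniSp6 as the stronger. With the offset of 0.7, UniSp6 was at 1.00-fold, from 20.47 cycles for the control and 21.17 for the Stat3 pull-down. The sources used here do not state where the offset comes from. The 238 rows at 1.625 have no well.

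Ratios were recomputed from the plates with pandas 2.3.3, without pseudocount or test. The matching was also run on plates simulated with the same offset and ceiling, so that run could not check either setting on the real plates. Members, lists and comparisons were chosen with earlier results of these data known. Named assays were the members, their families, cluster mates and arms, the 3 nearest by Ct, and the neighbours by ratio. Sequences came from RefSeq GRCm38.p6, which held all 12 listed miRNAs. Aligner and build do not apply to PCR; the sources used here do not give probe or primer sequences.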

Additional observations from a re-analysis of the deposited data

How the results depend on the processing

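A value was taken as unmoved if it changed by less than the calibrator SD of 0.97 cycles. The ceilings (37 or 33 cycles or none) could not change the 3 log2 ratios or their differences, because all 6 Ct values are below 33, and the offset of 0.7 and the calibrator mean of -0.19 shift every assay alike, so these settings say nothing about stability. The calibrator of the same plate row, for miR-99b and miR-125b-5p, and RNU1A1, both chosen after seeing the data, also moved them by less than that limit. The log2 ratios of miR-99b, miR-125a-5p and miR-125b-5p became 3.25, 2.66 and 0.68 minus the median of all measured miRNAs. They were 2.998, 2.41 and 0.43 minus that of the odd plate rows, which hold all 3, 2.75, 2.16 and 0.18 minus 4 reference miRNAs, 3.77, 3.18 and 1.20 minus 3 of them, 3.21, 2.62 and 0.64 minus U6, and 6.41, 5.82 and 3.84 minus RNU5G, chosen after seeing the data. Minus the median of assays within 1 cycle by control Ct, a choice made after seeing the data, they were 3.51, 2.90 and 0.53. None changed sign. The count of miRNAs at least 2-fold higher was 73 of 100 as reported, 56 without the offset and 81 minus the calibrator mean. With other ceilings it was 89 of 119 at 37, 48 of 64 at 33 and 93 of 124 with none. On the remaining scales it was 16 minus the median of all, 18 minus that of the same plate rows, 11 and 32 minus 4 or 3 reference miRNAs and 15 minus U6. Of 100 assays miR-99b, miR-125a-5p and miR-125b-5p ranked 5th, 6th and 26th by ratio, or 6th, 8th and 33rd against the median of each assay's own odd or even rows. Of 119 at a ceiling of 37 they ranked 8th, 10th and 33rd, and of 124 with none 11th, 13th and 37th. Among all 384 rows of the authors' deposited table, which include assays below 35 cycles with only 1 probe, they ranked 7th, 10th and 32nd. The log2 difference of 1.98 between miR-125a-5p and miR-125b-5p cannot change within plate rows, since both lie in odd rows. No paired analysis was possible because each probe has 1 pull-down, and no replicate could be left out. The calibrators' spread and the single pull-down per probe limit every ratio.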
